A study of Mus musculus with 6 samples.

Results

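Il34 encodes interleukin 34, a cytokine made by keratinocytes that keeps Langerhans cells, the resident dendritic cells of the epidermis, alive in place. The genes described here are Il34 and the genes of its Langerhans cell niche, chosen by name: Csf1, Csf1r, Csf2, Csf2ra, Csf2rb, Cd207, Epcam and Flt3l. A row of the array table counted where it was annotated to exactly 1 of these genes. Of the 9 genes, 8 were measured, by 69 of 109751 probe sets with 1 gene symbol, among 11281 genes in all. No array values of Csf2ra were used here. Il34 was picked with its difference between the genotypes in view, so the values of these 8 genes are given as a description, with no test.

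Interleukin 34 and colony stimulating factor 1 are alternative ligands of a single receptor tyrosine kinase, the product of Csf1r, which microglia, macrophages and Langerhans cells carry. In skin, interleukin 34 from keratinocytes is the ligand that Langerhans cells need in the steady state. Granulocyte-macrophage colony stimulating factor (Csf2) and Flt3 ligand (Flt3l) drive the growth of other dendritic cells, and transforming growth factor beta keeps Langerhans cells in the epidermis.

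The samples were keratinocytes from the back-skin epidermis of female mice aged 9.5 weeks on a C57BL6/CBA background. There were 3 samples of wild type epidermis and 3 of K14ΔNLef1 epidermis. K14ΔNLef1 mice carry a transgene for Lef1 that lacks its N terminus, the part that binds beta-catenin, driven by the keratin 14 promoter, which is active in basal epidermal cells. The cells were not separated into keratinocyte subsets, although the protocol text names sorting before RNA extraction, so cells of other types in the epidermis could contribute RNA. Each sample was read on 1 exon array. Replicates are labelled as biological, with no word on the animals behind them.

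Values are log2 intensities, and a gene's value is the mean over its probe sets. Lef1, the gene of the transgene, was at 5.81 to 7.02 in wild type and 11.11 to 11.24 in K14ΔNLef1. The keratinocyte keratins Krt14 and Krt5 were at 12.81 to 13.06 and 11.98 to 12.48 over the 6 arrays. K14ΔNLef1 replicate 1 stood apart, with a median intensity of 154.2 against 190.0 to 203.2 on the other 5 arrays. Some gene differences and list medians are therefore also given without it. Where no such value is given, that array may still have moved the result. The number of arrays limits the precision.

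Il34 was lower on every K14ΔNLef1 array. Its gene value was 9.17, 8.64 and 9.31 on wild type replicates 1, 2 and 3, and K14ΔNLef1 replicates 1, 2 and 3 read 7.41, 7.55 and 7.38. All triplets of values are given in this order of replicates. The genotypes did not overlap, and 1.09 log2 units separated the lowest wild type array from the highest K14ΔNLef1 array. The means were 9.04 ± 0.35 and 7.45 ± 0.09 (SD, n = 3 each). The difference was -1.60 (SE 0.21), a level 3.02-fold higher in wild type. The spread among the K14ΔNLef1 arrays was smaller than among the wild type arrays, where replicate 2 was the low one. Of all genes, 66 (0.585%) had a difference at or below that of Il34.

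No single array or setting decided the difference. With 1 array left out in turn it ranged from -1.80 to -1.46, and without K14ΔNLef1 replicate 1 it was -1.58. Over all 16 alternative settings it lay between -1.80 and -1.45, and the median of the probe sets in place of their mean gave -1.77. Some of the 16, such as those that change only the test, cannot alter the difference.

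All 10 Il34 probe sets had a lower mean in K14ΔNLef1, but by unequal amounts. Probe set 5118410 read 10.63, 9.96 and 10.87 in wild type against 7.76, 7.82 and 7.74 in K14ΔNLef1, a difference of -2.71 (SE 0.27). Probe set 5410737 read 9.93, 10.01 and 10.11 against 7.96, 7.80 and 8.04, a difference of -2.09 with the smallest SE of the 10 (0.09). The largest difference was that of probe set 5165988, at -2.87 (SE 0.48), from 9.04 ± 0.75 to 6.18 ± 0.36 (SD, n = 3). Altogether 5 probe sets differed by -2 or more in size, 7 did not overlap between the genotypes, and all 7 were lower in K14ΔNLef1. On probe sets 5224678 and 4392862 only 0.06 and 0.17 separated the genotypes. Over all probe sets 9.46% were lower without overlap, 57.5% had a difference below 0 and 42.5% above 0, and 0.19% passed limma at an adjusted p of 0.05. Over all genes 57.2% were below 0. Since Il34 was picked on this contrast, nothing is read from these shares.

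The other 3 Il34 probe sets overlapped. Probe set 5409203 differed by -0.11 (SE 0.17), with 6.57, 6.69 and 6.71 in wild type and 6.81, 6.59 and 6.23 in K14ΔNLef1. Probe set 4647886 differed by -0.76 (SE 0.54), because K14ΔNLef1 replicate 1 read 8.69 where replicates 2 and 3 read 7.40 and 7.31. Probe set 4647777 differed by -0.89 (SE 0.40). On probe set 4304978, which did not overlap between the genotypes, K14ΔNLef1 replicate 1 was instead the low one, at 7.05 against 8.46 and 9.21. The exons that the probe sets read were not analysed here.

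**Figure D1:**
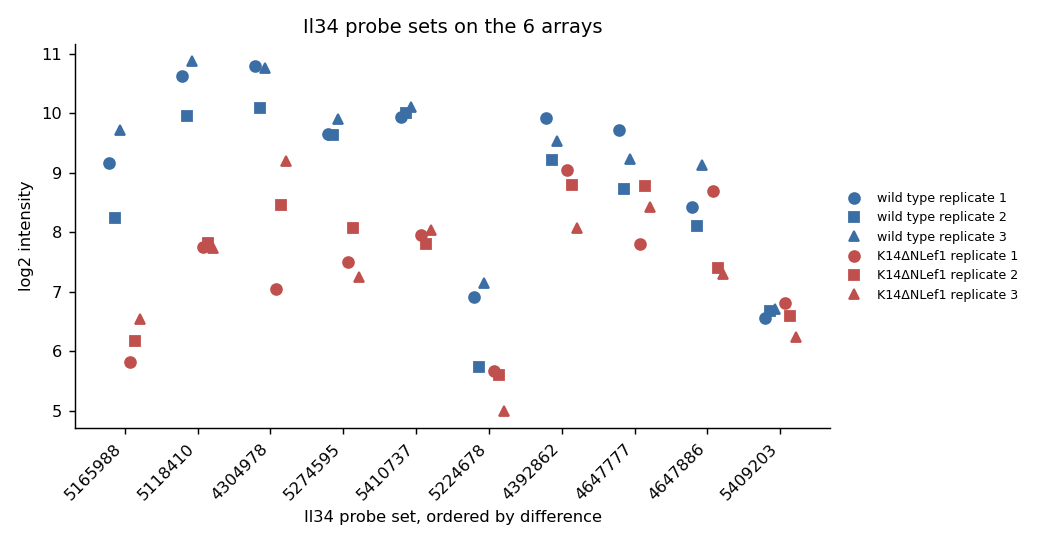
Log2 intensity (vertical axis) of the 10 Il34 probe sets (horizontal axis, ordered by difference) on 3 wild type arrays (blue) and 3 K14ΔNLef1 arrays (red), with a marker shape for each replicate. The blue and red points are apart on the 7 probe sets at the left, narrowly on 5224678 and 4392862, and overlap on the 3 at the right.

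Csf1, the other ligand of the receptor, overlapped between the genotypes. Its gene value was 6.97, 6.93 and 6.27 in wild type and 6.41, 6.61 and 6.88 in K14ΔNLef1. Wild type replicate 3 was the lowest array of all. The difference was -0.09 (SE 0.26), and of the 12 Csf1 probe sets 6 were lower and 6 higher, from -0.83 to 0.54. With the median of the probe sets the difference was -0.45, so its size depended on how the probe sets were combined. Without K14ΔNLef1 replicate 1 the Csf1 difference was 0.02. With arrays shifted to the same median, which adds 0.11 to every difference, Csf1 was at 0.02 and Epcam at 0.04, so neither had a settled direction.

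Csf1r, the receptor, had a higher mean in K14ΔNLef1 with a wide spread. It was at 7.01, 6.45 and 6.68 in wild type and 6.72, 7.93 and 7.25 in K14ΔNLef1. K14ΔNLef1 replicate 2 was the highest array and K14ΔNLef1 replicate 1 lay inside the wild type range. The difference was 0.59 (SE 0.39), and it was 0.88 without K14ΔNLef1 replicate 1 and 0.27 without K14ΔNLef1 replicate 2. Of 18 Csf1r probe sets 16 were higher in K14ΔNLef1, 3 of them by more than 1, and none was free of overlap. The highest was probe set 4552500, with 4.59, 3.70 and 3.47 in wild type and 4.02, 6.60 and 6.43 in K14ΔNLef1. In such mixed samples more cells of a type and more RNA per cell cannot be told apart.

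Cd207 encodes langerin, a lectin used here as a marker of Langerhans cells. Its values were 6.36, 5.99 and 6.17 in wild type and 6.22, 7.05 and 6.80 in K14ΔNLef1. Replicates 2 and 3 of K14ΔNLef1 were above all wild type arrays and replicate 1 was among them. The difference was 0.52 (SE 0.27), 0.76 without K14ΔNLef1 replicate 1 and 0.34 without K14ΔNLef1 replicate 2. Of 7 Cd207 probe sets 6 were higher, and 2 did not overlap, 5534674 by 1.33 (SE 0.54) and 4682924 by 1.01 (SE 0.46). On 5534674 wild type read 6.42, 6.28 and 6.25 and K14ΔNLef1 6.75, 8.60 and 7.59. Among all probe sets 5.11% were higher without overlap.

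Epcam, an adhesion molecule on Langerhans cells that epithelial cells also carry, was at 9.96, 10.03 and 9.64 against 9.37, 9.94 and 10.11. The arrays of both genotypes were interleaved, with a difference of -0.07 (SE 0.25). K14ΔNLef1 replicate 1 was the lowest, and without it the difference was 0.15. The 6 probe sets ran from -0.35 to 0.30.

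The remaining growth factor genes overlapped too. Flt3l was at 7.67, 7.37 and 7.54 in wild type and 7.31, 7.79 and 7.76 in K14ΔNLef1, a difference of 0.09 (SE 0.18). It was 0.40 with the median of the probe sets, 0.25 without K14ΔNLef1 replicate 1 and 0.00 without K14ΔNLef1 replicate 2, so its size was not settled. Csf2, read by only 2 probe sets, was at 5.52, 5.05 and 5.29 against 5.88, 6.25 and 5.13, a difference of 0.47 (SE 0.36). K14ΔNLef1 replicate 3 of Csf2 lay inside the wild type range and the other 2 above it, and with 1 array left out the difference ran from 0.22 without K14ΔNLef1 replicate 2 to 0.78 without K14ΔNLef1 replicate 3. Csf2rb, the shared beta chain of the receptors for Csf2 and related cytokines, was at 6.07, 5.91 and 5.91 against 6.46, 5.93 and 6.17, a difference of 0.23 (SE 0.16). It was 0.09 without K14ΔNLef1 replicate 1, 0.35 without K14ΔNLef1 replicate 2 and 0.01 with array weights. Csf2rb has the near copy Csf2rb2 in the mouse, so its value is uncertain. Csf2 and Csf2rb were dim: both were under the lower quartile of gene means, and the filter on dim genes kept the 6 others. In sum 1 of the 8 genes, Il34, was free of overlap between the genotypes, where 11.8% of all genes were lower and 6.91% higher without overlap.

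**Figure D2:**
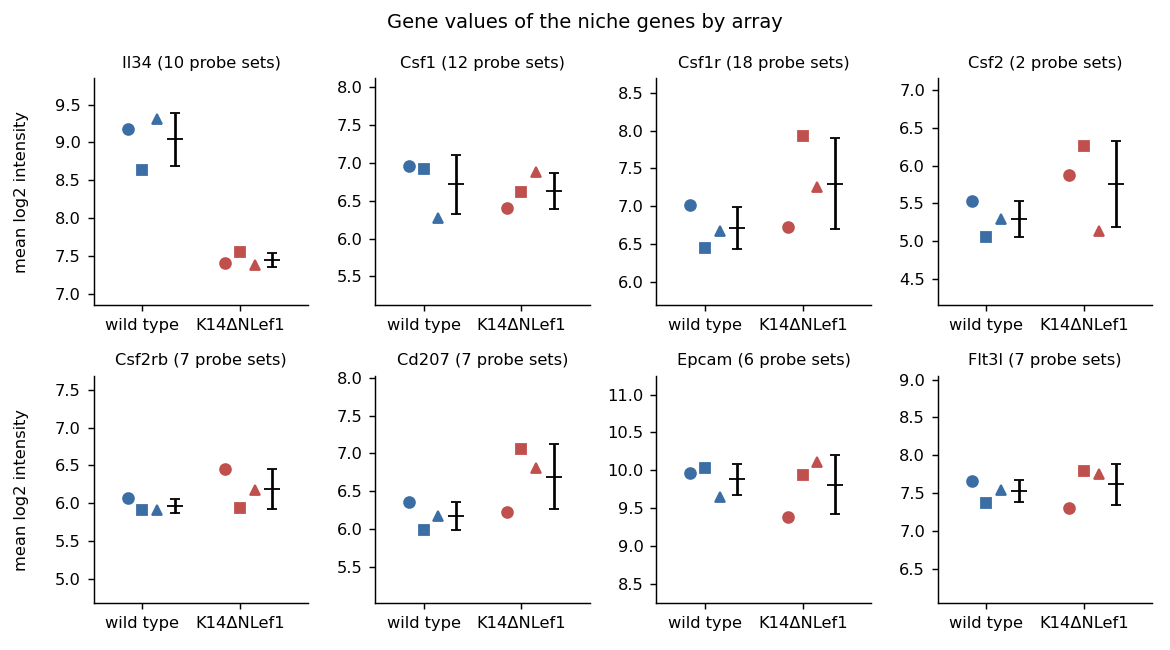
Gene value (mean log2 intensity, vertical axis, each panel 3 units high) of the 8 niche genes on wild type (blue) and K14ΔNLef1 (red) arrays, with circles, squares and triangles for replicates 1, 2 and 3 and black bars for mean ± SD. Il34 is the gene whose genotypes are apart, and K14ΔNLef1 replicates 2 and 3 are above the wild type arrays for Csf1r, Cd207 and Flt3l.

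**Figure D3:**
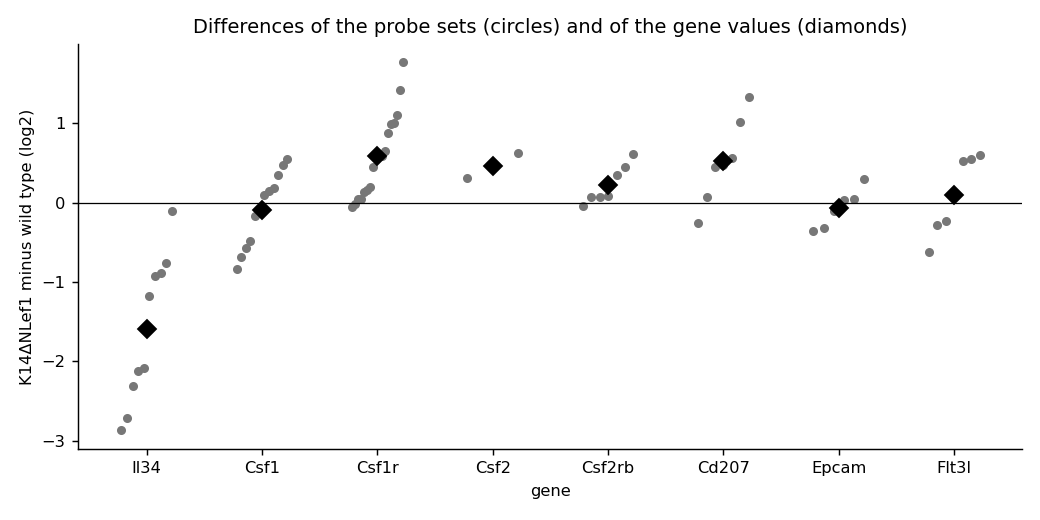
Difference K14ΔNLef1 minus wild type (log2, vertical axis) for each probe set (circles) and for the gene value (diamonds) of the 8 genes. All 10 Il34 circles lie below 0, those of Csf1 and Epcam lie on both sides, and most of Csf1r and Cd207 lie above 0.

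The upstream sequence of 2 niche genes is shown because it holds the core letters that proteins of the Lef1 and Tcf family bind, and the transgene is a form of Lef1. The letters CTTTGA and CTTTGT were searched on both strands in the 250 bases before the start of each gene, from RefSeq on GRCm38.p6. Of the 9 genes, 6 had an entry (Csf1, Csf2, Csf2ra, Cd207, Epcam and Flt3l), and Csf1 and Cd207 held a match. Of all 32851 promoters 27.6% did. Capitals mark the matches, which read TCAAAG and ACAAAG where they are on the other strand. The Csf1 sequence is chr3:107760470-107760719 and the Cd207 sequence is chr6:83677858-83678107, both on the minus strand and written 5′ to 3′.
Csf1: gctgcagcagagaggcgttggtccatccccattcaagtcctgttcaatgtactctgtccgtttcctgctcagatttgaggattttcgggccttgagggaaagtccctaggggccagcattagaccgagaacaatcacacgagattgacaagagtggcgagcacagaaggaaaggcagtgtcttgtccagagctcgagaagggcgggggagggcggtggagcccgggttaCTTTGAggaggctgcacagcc
Cd207: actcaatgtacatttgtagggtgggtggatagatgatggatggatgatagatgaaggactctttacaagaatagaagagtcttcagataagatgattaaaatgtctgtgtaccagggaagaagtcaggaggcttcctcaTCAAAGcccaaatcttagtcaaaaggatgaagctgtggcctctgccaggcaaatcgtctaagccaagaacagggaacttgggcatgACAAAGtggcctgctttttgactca
The match before Csf1 begins 21 bases before the start. A match is a description of the letters and not a site.

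Markers of Langerhans cells, Cd207, Epcam and Csf1r among them, were on average higher on 2 of the 3 K14ΔNLef1 arrays. Of 25 listed markers 23 were measured, and 19 had a difference above 0, with a median of 0.59. Outside the niche genes it was 17 of 20. Over all genes 42.8% were above 0 and the median was -0.05. The mean of the 23 on K14ΔNLef1 replicates 1, 2 and 3 lay -0.14, 0.93 and 0.44 from the wild type mean, and wild type replicates 1, 2 and 3 lay at 0.31, -0.29 and -0.02. K14ΔNLef1 replicate 1 was thus inside the wild type range. The mean log2 intensity of the list spanned 6.89 to 7.49 in wild type and 7.04 to 8.11 in K14ΔNLef1. The median was 0.80 without K14ΔNLef1 replicate 1 and 0.31 without K14ΔNLef1 replicate 2. Of the 20 markers outside the niche genes 0 rose and 1 fell in the limma test over all genes (adjusted p at or under 0.05), with 5 higher and 1 lower at an unadjusted p under 0.05. Over all genes 0.328% rose and 0.833% fell, 1.16% together, and at an unadjusted p under 0.05 4.21% were higher and 7.58% lower, 11.8% together.

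Genes of antigen presentation varied widely between arrays. H2-Eb1, a chain of MHC class II, was at 8.58, 7.09 and 8.06 in wild type and 8.23, 10.45 and 9.10 in K14ΔNLef1, a difference of 1.35 (SE 0.57, limma adjusted p of 0.402). Cd74, the invariant chain of MHC class II, was at 8.28, 6.61 and 7.50 against 7.08, 9.84 and 8.84. Ctss, the protease cathepsin S of antigen-presenting cells, was at 7.64, 6.98 and 6.91 against 7.55, 9.83 and 8.40. In both, wild type replicate 1 was the highest wild type array and K14ΔNLef1 replicate 2 the highest array of all. H2-DMb1, read by 1 probe set, had a difference of 0.01 (SE 0.37). Cd74 and Ctss are named after their values were seen. The same holds for Itgax, Fcer1g, Spi1 and Mfge8, the 4 of 23 markers that were higher without overlap, against 6.91% of all genes.

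Il1r2, a decoy receptor for interleukin 1 that Langerhans cells share with keratinocytes and other cells, went against the list. It fell by 3.75 (SE 0.25, limma adjusted p of 4.49e-04), from 10.57, 10.75 and 10.87 to 6.46, 7.33 and 7.14. It passed in 6 of 6 fits with 1 array left out. Without Il1r2 the list's median was 0.60. Without the genes of the Il34 niche it was 0.62.

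T cell markers were also highest on K14ΔNLef1 replicates 2 and 3. Their mean lay -0.03, 1.18 and 0.70 from the wild type mean on K14ΔNLef1 replicates 1, 2 and 3, with the wild type arrays at 0.24, -0.21 and -0.04, and 14 of 17 had a difference above 0 (median 0.67, or 1.20 without K14ΔNLef1 replicate 1). By limma 1 of the 17 rose, Icos, and 0 fell, with 6 higher and 0 lower at an unadjusted p under 0.05. Macrophage and monocyte markers lay at 0.21, 0.13 and -0.02 and dermal dendritic cell markers at 0.11, -0.03 and -0.07 on the K14ΔNLef1 arrays. Of the 15 macrophage and 10 dermal dendritic genes measured, 11 and 9 had a difference above 0. Irf4, at -2.09, was the dermal dendritic marker below 0. Basal keratinocyte markers were at -0.53, -0.23 and -0.07, with 10 of 11 lower in K14ΔNLef1, and suprabasal markers at -0.99, 0.04 and 0.12. The median difference of the basal list was -0.34, or -0.18 without K14ΔNLef1 replicate 1, and that of the suprabasal list -0.53, or 0.06 without it, so the latter turned direction. Macrophage and monocyte markers went from 0.15 to 0.06 and dermal dendritic cell markers from 0.13 to 0.01. Markers of mast cells and neutrophils (9 measured), fibroblasts and endothelium (15) and melanocytes (8) had median differences of 0.28, 0.13 and 0.13, or 0.17, 0.04 and 0.23 without that array. Of these 0 passed limma, with 1, 1 and 2 at an unadjusted p under 0.05, against 1.16% and 11.8% of all genes. Il34 lay at -1.63, -1.49 and -1.66 on these arrays. The part of the cell types in the niche values was not tested. None of 11 basal markers and none of 15 macrophage markers passed the limma test, with 0 and 0 at an unadjusted p under 0.05.

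**Figure D4:**
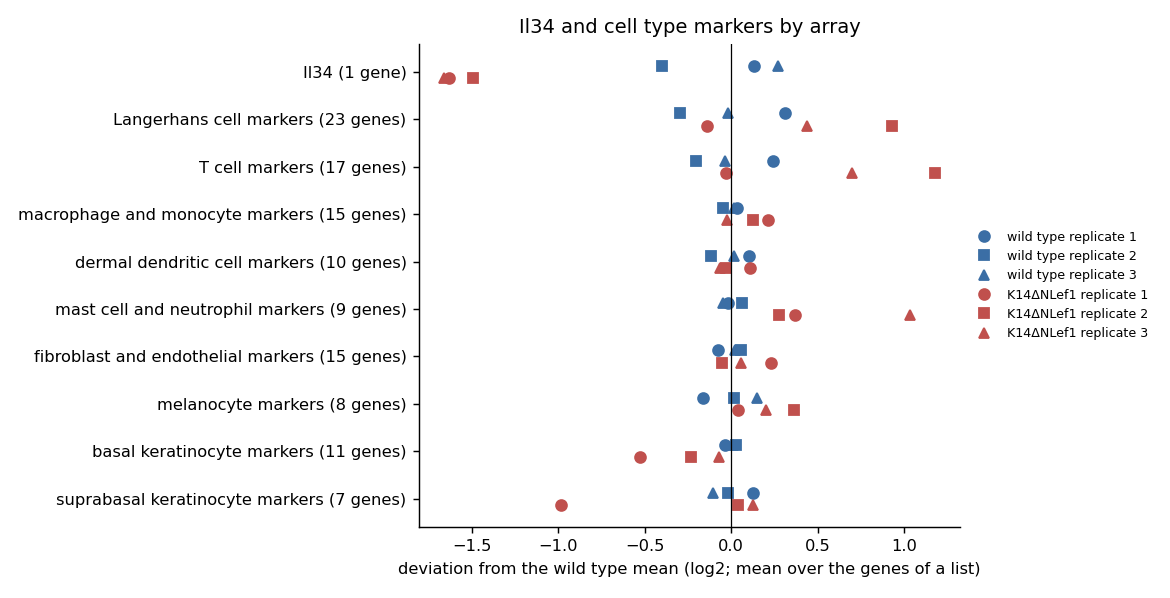
Deviation from the wild type mean (log2, horizontal axis) of Il34 and of the mean over each list of cell type markers (rows) on wild type (blue, upper) and K14ΔNLef1 (red, lower) arrays, with a marker shape for each replicate. Il34 sits between -1.66 and -1.49 on all K14ΔNLef1 arrays, while Langerhans and T cell markers are high on replicates 2 and 3.

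The other genes around the niche were read from 5 lists by role, without the niche genes, 117 in all of which 95 were measured. Over these, 2 fell and 0 rose (limma, adjusted p at or under 0.05, against 1.16% of all genes, 0.328% higher and 0.833% lower), and 30 of the 95 had an unadjusted p under 0.05, against 11.8% of all genes (4.21% higher, 7.58% lower), the shares for the unadjusted counts of each list. The 2 that fell were Il33 and Ackr2. Some of the 95, such as Spi1 and Tyrobp, were also on the marker lists above and count in both. Without K14ΔNLef1 replicate 1, 2 rose and 3 fell, and without wild type replicate 2, 1 fell.

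None of 19 measured genes of CSF1 receptor signalling passed, with 3 higher and 1 lower at an unadjusted p under 0.05. The median difference of the list was 0.06, or 0.16 without K14ΔNLef1 replicate 1. Spi1, the myeloid transcription factor PU.1, was at 5.81, 5.57 and 5.43 in wild type and 5.94, 6.68 and 6.59 in K14ΔNLef1, a difference of 0.80 (SE 0.24, limma adjusted p of 0.220). Fyn, a Src family kinase, differed by 1.12 (SE 0.38, limma adjusted p of 0.286). Spi1 passed without K14ΔNLef1 replicate 1 (adjusted p of 0.033). Spi1 was dim as well, at 5.61 on average in wild type, where Csf2rb was at 5.96.

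None of 24 measured genes of transforming growth factor beta signalling and Langerhans cell residency passed, with 2 higher and 4 lower at an unadjusted p under 0.05, and the median was -0.08, which turned to 0.06 without K14ΔNLef1 replicate 1. Gas6, a ligand of the Axl and Tyro3 receptors, differed by -0.70 (SE 0.20, limma adjusted p of 0.194). Runx3, a transcription factor that Langerhans cells need, differed by 0.71 (SE 0.20, limma adjusted p of 0.201). Gas6 read 9.84, 9.56 and 9.71 against 8.71, 9.20 and 9.10. Runx3 averaged 7.21 ± 0.28 over the wild type arrays against 7.91 ± 0.15 (SD, n = 3). Neither overlapped between the genotypes, but they were named for the smallest p of the list. Of the 24 genes 6 were lower and 2 higher without overlap, against 11.8% and 6.91% of all genes.

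None of 12 measured adhesion genes passed, with 3 higher and 2 lower at an unadjusted p under 0.05, and the median was -0.32, or -0.11 without K14ΔNLef1 replicate 1. Cldn7, a claudin that binds Epcam, was at 6.78, 6.44 and 6.47 against 7.93, 7.51 and 7.39, a difference of 1.05 (SE 0.21, limma adjusted p of 0.0641). Cldn7 passed without K14ΔNLef1 replicate 1 (adjusted p of 0.0496). Ctnnb1, beta-catenin, differed by 0.53 (SE 0.18, limma adjusted p of 0.288).

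Of 15 measured genes of homing and migration, 1 fell, with 2 higher and 4 lower at an unadjusted p under 0.05. The median was -0.08, or -0.17 without K14ΔNLef1 replicate 1. Ackr2, which scavenges inflammatory chemokines, fell by 2.50 (SE 0.29, limma adjusted p of 0.00983), from 8.96, 9.37 and 8.83 to 7.17, 6.28 and 6.19. With 1 array left out its adjusted p was 0.00187 to 0.0535, the last without wild type replicate 2. Of 25 measured haematopoietic growth factors and receptors, 1 fell, with 4 higher and 5 lower at an unadjusted p under 0.05. The median was 0.05. Il33, an alarmin cytokine of keratinocytes, fell by 3.43 (SE 0.21, limma adjusted p of 4.02e-04), from 9.64, 9.41 and 9.83 to 6.51, 5.98 and 6.09, and passed in 6 of 6 fits with 1 array left out. With quantile normalization or arrays shifted to the same median, Il1r1 and Il4ra passed as well, with adjusted p of 0.0371 and 0.048 in the first. They were named after their values were seen.

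**Figure D5:**
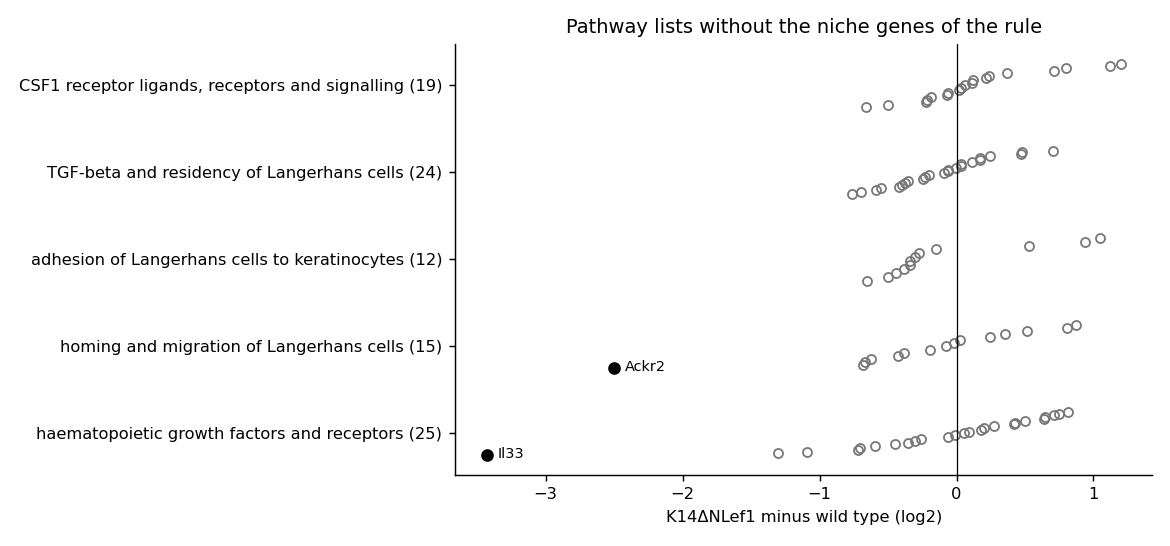
Difference K14ΔNLef1 minus wild type (log2, horizontal axis) of each measured gene in 5 lists by role (rows, number of genes in brackets), with filled circles for genes past the limma threshold. Ackr2 and Il33 are the filled circles, at -2.50 and -3.43, and the open circles lie on both sides of 0.

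The genes whose pattern over the 6 arrays was most like that of Il34 were taken by Pearson's r among 2414 genes with an SD at least 0.5 times that of Il34 (0.90). They were 4930550C14Rik, Dlc1, Lyrm1, Ctso, Man1c1, Slc16a14, Slc6a4 and Meis2, with r from 0.98 to 0.99. All 8 were lower in K14ΔNLef1 without overlap, against 11.8% of all genes. The choice by r with Il34 favours such genes and the same order of arrays, so neither is a further result. In 7 of them, as in Il34, wild type replicate 3 was the highest array and in all 8 wild type replicate 2 was the lowest wild type array. Slc6a4, the serotonin transporter, was at 8.96, 8.88 and 9.17 in wild type against 8.01, 7.98 and 7.86 in K14ΔNLef1. Genes most unlike it were Pla2g4c, Lef1, Lix1 and Kctd14, with r from -0.99 to -0.98. With 6 arrays in 2 genotypes, a gene that separates the genotypes with little spread can have an r of this size, so r describes the pattern and no more.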

How the data were processed

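Exon arrays of 6 samples were analysed, 3 per genotype, grouped by the sample titles. The authors deposited 1 linear intensity per probe set and array, made with RMA in Affymetrix Power Tools on mm9, per the submitters' processing notes, whose versions are not named there. Here log2 was taken, and 109751 of 114330 probe sets with 1 platform symbol were kept (834 had several and 3745 none listed), with 1226 older symbols updated through RefSeq synonyms. A gene's value is the mean log2 of its probe sets. Genes and probe sets were fitted with limma 3.58.1 in R 4.3.3 (lmFit, eBayes, two-sided, Benjamini-Hochberg over the whole table, threshold 0.05). The fit was also run on simulated data with independent noise and no shift of a whole array. There, the share that passed was checked only for the largest of the known changes, and for genes only. RNA was amplified before hybridisation, per the labels' protocols. The SE of the 8 niche genes and their probe sets comes from the SDs of both genotypes, and other SEs from limma. Samples are called biological replicates, and the p-values set a genotype difference against the spread between them, as moderated by eBayes.

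The named genes are the niche genes, every listed pathway gene that passed or else the 2 with the smallest p, up to 4 of the brightest markers of a list, and the 8 genes most and 4 least like Il34. Members and lists were chosen with earlier results of these data known. Same-numbered samples did not deviate together (r of -0.16, -0.17 and 0.04 across genes), so replicate numbers were not treated as pairs. Alternatives were the median or the brighter probe sets, filters, scalings, eBayes settings, array weights, blocks and each array left out.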

Additional observations from a re-analysis of the deposited data

How the results depend on the processing

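The Il34 difference stayed within 1 SD between arrays of its value in all 16 alternatives. The blocks and eBayes settings cannot change a difference of means here. The filter on dim genes cannot change that of a gene it keeps. These settings are thus no check of the Il34 difference. The median of the Langerhans cell markers also stayed within 1 such SD in all 18. That SD is wide: the median was 0.31 to 0.80 with 1 array left out, against 0.59 with all arrays. With 1 array left out the Il34 difference was -1.80 to -1.46. Counts of calls moved more, and the cause was not tested. Of all genes, 131 passed (37 higher, 94 lower), against 1297 with array weights, 234 with arrays shifted to the same median (101 higher, 133 lower), 201 with quantile normalization (89 higher, 112 lower), 238 without K14ΔNLef1 replicate 1 and quantile normalization (added after seeing the data), 236 at the looser threshold of 0.1. Leaving out 1 array gave 28 to 239 genes. Of probe sets, 209 passed, against 690 with array weights, 376 with the same median, 362 with quantile normalization, 490 at the looser threshold. Leaving out 1 array gave 1 to 190 probe sets. Among the pathway genes 2 passed, against 31 with array weights, 4 with the same median, 4 with quantile normalization and 1 to 5 with 1 array left out.

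With the replicate number as a block (replicate block), 75 genes and 0 probe sets passed limma, with 8195 probe sets at an unadjusted p under 0.05, and the Il34 difference was -1.60. With adjacent sample numbers as a block, 91 genes and 0 probe sets passed, with 8789 probe sets at an unadjusted p under 0.05. The replicate block and the block of adjacent sample numbers left 2 pathway genes each. Not every sample correlated best with its own number.

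The table has no detection calls, so whether dim genes such as Csf2, Csf2rb and Spi1 are above background is unknown.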

Other observations

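Markers of other cell types held further calls. Icos, a costimulatory receptor of T cells, rose by 1.27 (SE 0.20, limma adjusted p of 0.0286), with 6.70, 7.11 and 6.76 in wild type and 7.93, 8.39 and 8.07 in K14ΔNLef1. It passed in 1 of 6 fits with 1 array left out, the fit without K14ΔNLef1 replicate 1, and its adjusted p there ranged from 0.0219 to 0.165. With the replicate number as a block it did not pass (adjusted p of 0.0595). Irf4, a transcription factor of dendritic cells, lymphocytes and melanocytes, fell by 2.09 (SE 0.31, limma adjusted p of 0.0224), from 8.36, 7.38 and 7.58 to 5.67, 5.29 and 6.11. It passed in 2 of 6 such fits, those without K14ΔNLef1 replicate 1 and replicate 3, and its adjusted p ranged from 0.0385 to 0.0978. The suprabasal keratins Krt2 and Krt77 passed too (limma adjusted p of 0.024 and 0.0102), with differences of 1.79 and -1.97, in 1 and 4 of 6 such fits. These genes were named after their values were seen.

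S100a8 and S100a9, which neutrophils and stressed keratinocytes make, were high on a single array. S100a8 was at 9.14 on K14ΔNLef1 replicate 3 and 4.49 to 5.44 on the other 5 arrays, and S100a9 at 8.44 against 4.53 to 6.29.

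The sample descriptions carry numbers whose meaning is not stated, and those of wild type replicate 1 and K14ΔNLef1 replicate 2 are adjacent. These were the arrays with the highest Langerhans cell markers in their genotypes, at 0.31 and 0.93 from the wild type mean, while Il34 was not the highest in wild type replicate 1. Over all genes the deviations of these 2 arrays from their group means had a correlation of 0.20, and those of the other adjacent numbers -0.07 and -0.01. Wild type replicate 2 and K14ΔNLef1 replicate 1, whose numbers are not adjacent, had a correlation of 0.17. A value near 0.20 was thus not particular to adjacent numbers.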
